A study of Homo sapiens with 8 samples.

Results

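The genes described here encode surface ligands through which a tumour cell is read by lymphocytes and phagocytes. They are the immune checkpoint ligand genes CD274, PDCD1LG2, CD276, CD47 and PVR and the NKG2D ligand genes MICA, MICB, ULBP1, ULBP2 and ULBP3. Members were found by exact gene symbol, with the entry of highest total count taken where a symbol was repeated, and are 10 of the 46427 genes listed for NCI-H1944 and of the 61271 listed for NCI-H647. The rule uses gene symbols and no measured value other than that total. The members were, however, chosen with earlier results of these data known, so their counts of calls and medians below are not independent of that choice. All 10 were found in both tables, and all 10 passed the filter on low counts in both lines.

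NCI-H1944 and NCI-H647 are established human lung cancer lines, given as wild type in the labels. Both were grown in RPMI medium with fetal bovine serum, penicillin, streptomycin and plasmocin. Treated cells were exposed for 48 hours to 100 nM BAY-1217389, which inhibits MPS1, a kinase of the spindle checkpoint. The drug was then removed and RNA was collected after a further 24 hours, and control cells received DMSO on the same schedule. There were 2 libraries in each of the 4 groups, and n = 2 holds for every value below. MPS1 keeps cells from separating chromosomes that lack spindle attachment, and cells without its activity missegregate chromosomes. The design asks how a pulse of such missegregation alters expression in each line.

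PD-L1 and PD-L2, the products of CD274 and PDCD1LG2, bind the inhibitory receptor PD-1 on T cells, and interferon signalling through JAK kinases and IRF1 is a known inducer of PD-L1. CD47 binds SIRP-alpha on macrophages and restrains phagocytosis. PVR is read by the inhibitory receptors TIGIT and CD96 and by the activating receptor CD226. The MIC and ULBP proteins are relatives of class I heavy chains that bind NKG2D, an activating receptor of natural killer cells and cytotoxic T cells, and are known to be raised by cell stress and DNA damage.

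The promoter stretches of CD274, MICA and MICB are shown because CD274 had the largest changes among the ligand genes and because the MIC pair are neighbouring copies whose responses differed between the lines. The sequences are from the RefSeq promoter table on GRCh38.p14. Each begins 250 bases before the RefSeq start and stops before the first GENCODE v29 exon of the gene within that window. All are on the plus strand, and distances are in bases from the RefSeq start of the gene. In the CD274 stretch, chr9:5450292-5450502, capitals mark a pair of overlapping repeats of the interferon-stimulated response type (ISRE-type repeat: GAAA, NN for any 2 bases, GAAA), read on the minus strand at -208 and -202, and 1 TTCNNNGAA match, the STAT-binding GAS type, at -125. In the MICA stretch, chr6:31403345-31403578, and the MICB stretch, chr6:31497895-31498085, capitals mark GGGCGG (GC box) and CCAAT matches, all on the minus strand.
CD274: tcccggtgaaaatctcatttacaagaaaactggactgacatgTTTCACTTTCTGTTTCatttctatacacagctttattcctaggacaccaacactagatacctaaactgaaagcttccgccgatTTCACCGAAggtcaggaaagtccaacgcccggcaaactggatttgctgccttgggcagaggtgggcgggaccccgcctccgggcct
MICA: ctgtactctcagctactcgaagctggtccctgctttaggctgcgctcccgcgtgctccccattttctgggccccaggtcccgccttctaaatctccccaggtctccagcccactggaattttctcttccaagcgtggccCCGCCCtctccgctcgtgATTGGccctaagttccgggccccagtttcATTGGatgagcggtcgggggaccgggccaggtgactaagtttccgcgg
MICB: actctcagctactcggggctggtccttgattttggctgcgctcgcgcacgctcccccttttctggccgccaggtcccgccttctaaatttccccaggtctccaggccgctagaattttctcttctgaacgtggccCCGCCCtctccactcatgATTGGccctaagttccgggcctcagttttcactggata
Both MIC stretches lie inside the gene spans of the NCI-H647 table, which begin further upstream. The MICA and MICB stretches were identical at 167 of 190 aligned bases (87.9%).

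Of the 10 genes, 9 had a window of 250 bases before the RefSeq start, in 10 windows because CD276 had more than 1 start, and PDCD1LG2 was not in the table. Both strands were searched, and matches of different motifs could overlap. The ISRE-type repeat was found in 1 of the 10 windows (CD274) and in 3.02% of all 35116 windows. TTCNNNGAA was found in 1 of the 10 (CD274) and in 6.57% of all. An NF-kB type sequence (GGGA, NNNN, CC) was found in 6 of the 10 and 22.6% of all. GGGCGG was found in 9 of the 10 and 42.6% of all, and CCAAT in 4 and 32% of all. TTTCNCGC, an E2F type sequence, was found in 1 of the 10 (ULBP2) and 2.55% of all. TGACGTCA, the CRE, and a heat-shock repeat (GAA, NN, TTC, NN, GAA) were in none of the 10 windows and in 1.65% and 0.441% of all. These are letter matches in short windows and not measured binding.

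In NCI-H1944, 6 of the 10 ligand genes rose after the inhibitor, 1 fell and 3 were not called, at an adjusted p under 0.05 from edgeR's quasi-likelihood test over all 16738 genes tested. Among all genes tested, 13.6% rose and 12.4% fell, 26.0% in either direction. The rises were CD274, PDCD1LG2, CD276, CD47, MICB and ULBP2, and the fall was PVR. In NCI-H647, 9 of the 10 rose and none fell, with ULBP1 not called. There 27.3% of the 15049 genes tested rose and 27.0% fell, so that 54.4% were called in either direction. The median log2 fold change of the ligand genes was 0.34 in NCI-H1944 and 0.53 in NCI-H647, against 0.0011 and 0.0054 over all genes tested. PDCD1LG2 passed the filter in NCI-H1944 only through its treated libraries, so its place in that count and median was partly set by the filter. In bulk RNA, fewer cells expressing a gene and less RNA per cell cannot be told apart.

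Most of these changes were small. Changes of at least 2-fold that passed the test were found for CD274 and PDCD1LG2 in NCI-H1944, where 3.11% of all genes did the same, and for CD274 in NCI-H647, where 5.60% did. Both treated libraries lay above both DMSO libraries for 8 genes and below for 2 in NCI-H1944, against 30.5% and 30.5% of all genes tested. In NCI-H647 they lay above for 9 genes and overlapped for 1, against 38.4% of all genes above and 37.9% below.

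**Figure D1:**
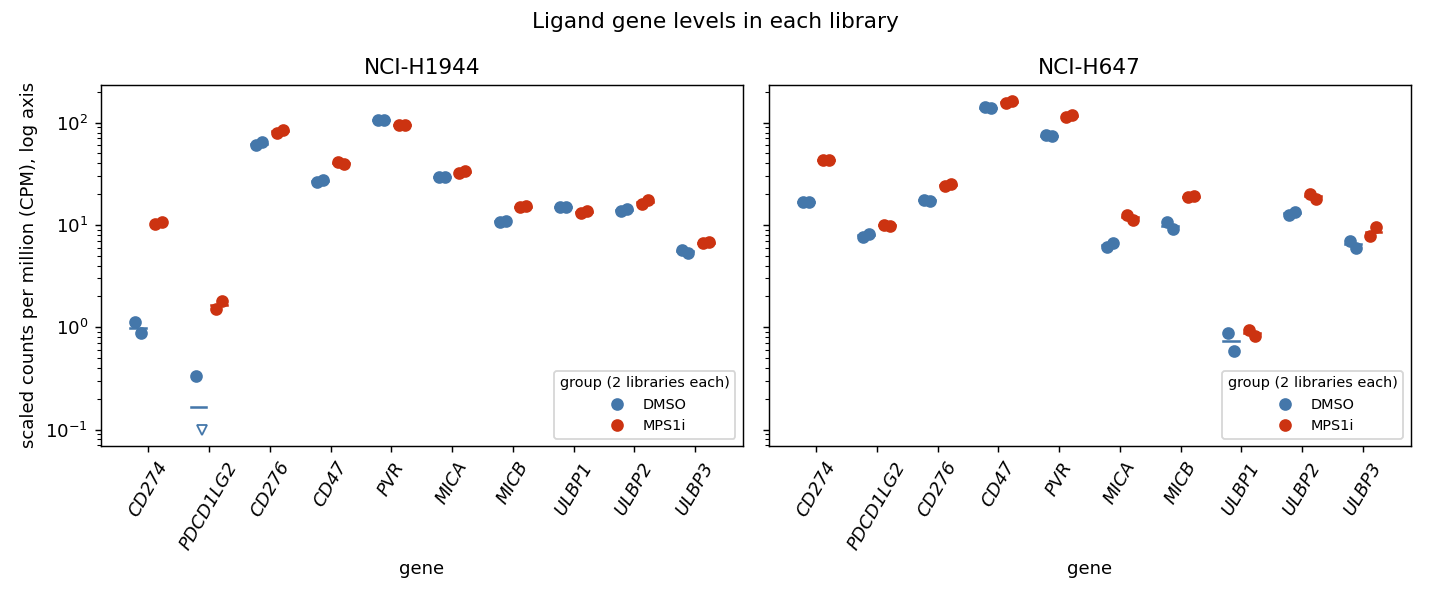
Level of each ligand gene in each library, as CPM (scaled counts) on a log axis, for NCI-H1944 (left) and NCI-H647 (right). Points are libraries, short lines are group means, and the open triangle, drawn at 0.1 because a log axis has no 0, is the DMSO library of NCI-H1944 with 0 PDCD1LG2 counts. CD274 stands at 1.12 and 0.869 CPM after DMSO and 10.2 and 10.7 CPM after the inhibitor in NCI-H1944.

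CD274 (Ensembl ENSG00000120217, chr9:5450503-5470566, plus strand, GRCh38) encodes PD-L1. In NCI-H1944 44 and 34 reads were counted in the DMSO libraries, against 446 and 458 in the treated libraries. Scaled to the library total (CPM, the count in every 1000000 counts of the TMM-scaled total), these were 1.12 and 0.869 against 10.2 and 10.7 CPM. Both treated libraries were far above both controls, a 10.5-fold rise with a log2 fold change of 3.39 ± 0.17 (SE, adjusted p = 1.40e-10). Only 0.556% of the genes tested had a larger log2 fold change, which placed it at rank 94. In NCI-H647 the gene was at 16.7 CPM in each DMSO library and reached 43.5 and 42.9 CPM after the inhibitor. That was a 2.59-fold rise (log2 1.37 ± 0.06, adjusted p = 1.04e-10), at rank 504, with 3.34% of genes above it. The CD274 calls held in both lines under every alternative that was run.

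PDCD1LG2 (ENSG00000197646, chr9:5510531-5571282, plus strand) encodes PD-L2 and starts 40.0 kb after the end of CD274. In NCI-H1944 the DMSO libraries had 13 and 0 counts and the treated libraries 66 and 77, or 0.330, 0, 1.52 and 1.80 CPM. As a sampled count, a 0 allows up to 3 counts in that library of 38904473. HLA-G also has a 0 beside at least 150 counts in the replicate, and how reads were assigned is not given, so this 0 may not be a sampled count. Both treated libraries were above both controls, and the log2 fold change was 3.30 ± 0.60 (adjusted p = 0.000599). This call was lost with DESeq2 (adjusted p = 0.353) and with no low-count filter (0.0895). The estimate was 9.12 without DMSO replicate 1 and 2.31 without DMSO replicate 2. In NCI-H647 the gene was at 7.67 and 8.14 CPM after DMSO and 10.1 and 9.81 CPM after the inhibitor. The rise there was 0.33 ± 0.13 on the log2 scale (adjusted p = 0.0354) and was not called in 6 of the 10 alternatives other than a minimum fold. These were DESeq2 (0.257), the joint fit (0.271), no low-count filter (0.0750) and the fits without DMSO replicate 1 (0.151), inhibitor replicate 1 (0.125) or inhibitor replicate 2 (0.0860).

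CD276 (ENSG00000103855, chr15:73683966-73714514, plus strand) encodes B7-H3, a B7 family protein with inhibitory effects on T cells. It rose in both lines. In NCI-H1944 it was at 59.8 and 64.3 CPM after DMSO and 79.1 and 85.1 CPM after the inhibitor, a log2 fold change of 0.40 ± 0.05 (adjusted p = 1.25e-05). In NCI-H647 it was at 17.6 and 17.1 CPM after DMSO and 23.9 and 25.2 CPM after the inhibitor, a log2 fold change of 0.50 ± 0.08 (adjusted p = 6.28e-05). The groups did not overlap in either line.

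CD47 (ENSG00000196776, chr3:108043091-108091862, minus strand) encodes the ligand of SIRP-alpha. In NCI-H1944 it was at 26.5 and 27.4 CPM after DMSO and at 40.8 and 39.5 CPM after the inhibitor. This was a rise of 0.58 ± 0.06 on the log2 scale, or 1.49-fold (adjusted p = 1.73e-06). In NCI-H647 it was at 141 and 138 CPM after DMSO and 155 and 161 CPM after the inhibitor. That rise was 0.18 ± 0.04, or 1.13-fold (adjusted p = 0.00279), and it was not called without inhibitor replicate 2 (log2 0.14, adjusted p = 0.0621).

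PVR (ENSG00000073008, chr19:44643798-44666162, plus strand) was the ligand gene that moved in opposite directions. In NCI-H1944 it was at 105 and 107 CPM after DMSO and at 95.01 and 93.98 CPM after the inhibitor, so both treated libraries were lower. It fell by 0.17 on the log2 scale (SE 0.04, adjusted p = 0.00339). In NCI-H647 it was at 74.9 and 73.6 CPM after DMSO and at 114 and 118 CPM after the inhibitor, and rose 1.56-fold (log2 0.64 ± 0.05, adjusted p = 4.01e-08). The end of PVR overlaps CEACAM19 on the same strand over 3885 bases and the antisense gene CEACAM16-AS1 spans it. In NCI-H647 CEACAM19 had only 16, 10, 26 and 24 counts and CEACAM16-AS1 97, 78, 37 and 53 (DMSO, then inhibitor), against 1248 to 1598 for PVR.

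MICA and MICB lie 79.6 kb apart in the class I region, and both rose in NCI-H647. MICA (ENSG00000204520, chr6:31399784-31415315, plus strand) went there from 6.05 and 6.60 CPM after DMSO to 12.6 and 11.1 CPM after the inhibitor. MICB (ENSG00000204516, chr6:31494881-31511124, plus strand) went from 10.6 and 9.14 CPM to 18.9 and 19.0 CPM. The log2 fold changes were 0.91 ± 0.13 for MICA (1.88-fold, adjusted p = 3.49e-05) and 0.93 ± 0.10 for MICB (1.91-fold, adjusted p = 2.10e-06). After CD274 these were the largest changes of the 10 genes in that line.

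In NCI-H1944 the log2 fold changes of the MIC genes were smaller, and 1 of the pair was called. MICA was at 29.5 and 29.4 CPM after DMSO and 32.2 and 33.9 CPM after the inhibitor. Its treated libraries were above both controls, but the log2 fold change of 0.17 ± 0.06 (95% interval 0.04 to 0.30) had an adjusted p of 0.0583. The same value passed the threshold in the joint fit of all 8 libraries (adjusted p = 0.0291) and with a replicate block (0.0492). MICB rose from 10.8 CPM in each DMSO library to 14.9 and 15.2 CPM, a log2 fold change of 0.48 ± 0.09 (adjusted p = 0.000776). Reads that fit both MIC genes could be divided between them in a way the sources used here do not state.

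ULBP1, ULBP2 and ULBP3 encode NKG2D ligands held on the surface by a lipid anchor and lie close together on chromosome 6. ULBP2 (ENSG00000131015, chr6:149942014-149949235, plus strand) was the one that rose in both lines. RAET1L, described below, is close to it in sequence, and how reads fitting both were counted is not given in the sources used here. In NCI-H647 ULBP2 went from 12.4 and 13.4 CPM to 20.2 and 18.1 CPM, a log2 fold change of 0.57 ± 0.10 (adjusted p = 0.000150). In NCI-H1944 it went from 13.8 and 14.2 CPM to 16.05 and 17.53 CPM, a log2 fold change of 0.26 ± 0.09 (adjusted p = 0.0352). The NCI-H1944 call was lost without DMSO replicate 1 (adjusted p = 0.116), DMSO replicate 2 (0.0639) or inhibitor replicate 2 (0.216), with DESeq2 (0.146) and with no filter (0.113).

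ULBP3 (ENSG00000131019, chr6:150061053-150069121, minus strand) was at 5.71 and 5.37 CPM after DMSO and 6.61 and 6.78 CPM after the inhibitor in NCI-H1944. Its log2 fold change there, 0.27 ± 0.13, was not called (adjusted p = 0.136). In NCI-H647 it was at 6.99 and 5.96 CPM after DMSO and 7.77 and 9.45 CPM after the inhibitor, a rise of 0.40 ± 0.15 (adjusted p = 0.0352). That call was lost without DMSO replicate 2 (0.157) or inhibitor replicate 2 (0.297), with DESeq2 (0.206) and with no filter (0.114). The ULBP3 groups did not overlap in either line, but the lowest treated library of NCI-H647 was only just above its highest control.

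ULBP1 (ENSG00000111981, chr6:149963943-149973715, plus strand) was called in neither line. In NCI-H1944 it was at 14.9 and 14.8 CPM after DMSO and 13.1 and 13.6 CPM after the inhibitor, with a log2 fold change of -0.16 ± 0.09 (95% interval -0.34 to 0.03, adjusted p = 0.212). In NCI-H647 it had only 17, 10, 13 and 11 counts, and it was the only ligand gene whose groups overlapped. The interval there ran from -0.62 to 1.09 around 0.23 (adjusted p = 0.651), so a 2-fold rise lay within the interval and a change was not detectable at this depth.

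**Figure D2:**
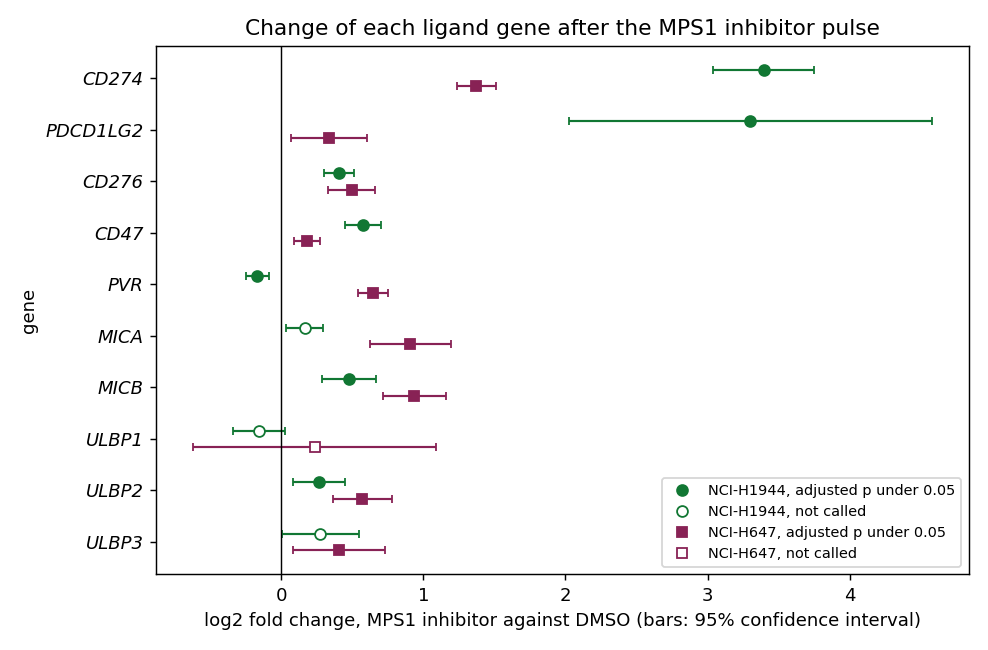
Log2 fold change of each ligand gene, inhibitor against DMSO, in NCI-H1944 (circles) and NCI-H647 (squares), with 95% confidence intervals as bars. Filled symbols passed an adjusted p of 0.05 and open symbols did not. CD274 is at 3.39 and 1.37, PVR lies on both sides of 0 at -0.17 and 0.64, and the ULBP1 interval in NCI-H647 is wide.

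Levels of different genes were compared per kilobase of exon (CPM per kb of all GENCODE v29 exons of the gene, an annotation that may differ from the authors'). After DMSO in NCI-H1944, PVR was highest at 30.2 CPM per kb, followed by MICA at 12.3, CD276 at 11.2 and ULBP2 at 10.4. ULBP3 at 5.61, ULBP1 at 4.74, MICB at 3.86 and CD47 at 3.28 came next, and CD274 at 0.242 and PDCD1LG2 at 0.0698 were last. The DMSO libraries of neighbours in this order did not overlap. After the inhibitor, CD274 at 2.55 and PDCD1LG2 at 0.701 CPM per kb were still the lowest of the 10.

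In NCI-H647 the order after DMSO was PVR at 21.1 CPM per kb, CD47 at 16.9, ULBP2 at 9.59, ULBP3 at 6.55, CD274 at 4.06, MICB at 3.53, PDCD1LG2 at 3.34, CD276 at 3.13, MICA at 2.65 and ULBP1 at 0.235. Of the neighbours in this order, MICB and PDCD1LG2 overlapped between their DMSO libraries. After the inhibitor CD274 stood at 10.5 CPM per kb, above ULBP3 at 8.71. The lines were sequenced from different library kits, poly(A)-selected for NCI-H1944 and depleted of ribosomal RNA for NCI-H647, so a difference of level between the lines cannot be told apart from the kit and was not tested.

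The response itself was compared between the lines by the interaction term of a joint fit over 12887 genes. Each line also has its own kit, count table and depth, so a difference of response cannot be assigned to the line alone. It passed the test for 6 of the 10 ligand genes, against 40.1% of all genes, and was larger in NCI-H647 for 3 of them and smaller for 3, against 17.4% and 22.7% of all genes. Over all genes the split was 2240 larger and 2926 smaller, and 3015 larger and 2089 smaller when library totals were the only scaling. The log2 response of CD274 was smaller in NCI-H647 by 2.04 ± 0.17 (adjusted p = 3.24e-09). It was also smaller for PDCD1LG2, with a difference of -2.98 ± 0.53 (adjusted p = 0.000105, or 0.108 with DESeq2), and for CD47, with -0.42 ± 0.07 (adjusted p = 2.76e-05). PDCD1LG2 passed the filter in NCI-H1944 only through its treated libraries, so its place among the 6 was partly set by the filter.

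The responses that were larger in NCI-H647 belonged to PVR and the MIC genes. The difference was 0.79 ± 0.06 for PVR (adjusted p = 2.43e-10), which had opposite directions in the lines, and 0.72 ± 0.13 for MICA (adjusted p = 0.000157). For MICB it was 0.44 ± 0.14 (adjusted p = 0.0157), and this call was lost with DESeq2 (0.0619) and without NCI-H647 DMSO replicate 2 (0.113). The difference was not called for CD276, at 0.07 (95% interval -0.14 to 0.28), for ULBP1, at 0.37 (-0.43 to 1.17), or for ULBP3, at 0.11 (-0.32 to 0.54). For ULBP2 it was 0.29 (0.01 to 0.56), with an adjusted p of 0.0896, which passed the threshold with library totals as the scaling (0.0309) and without NCI-H1944 inhibitor replicate 2 (0.0494).

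**Figure D3:**
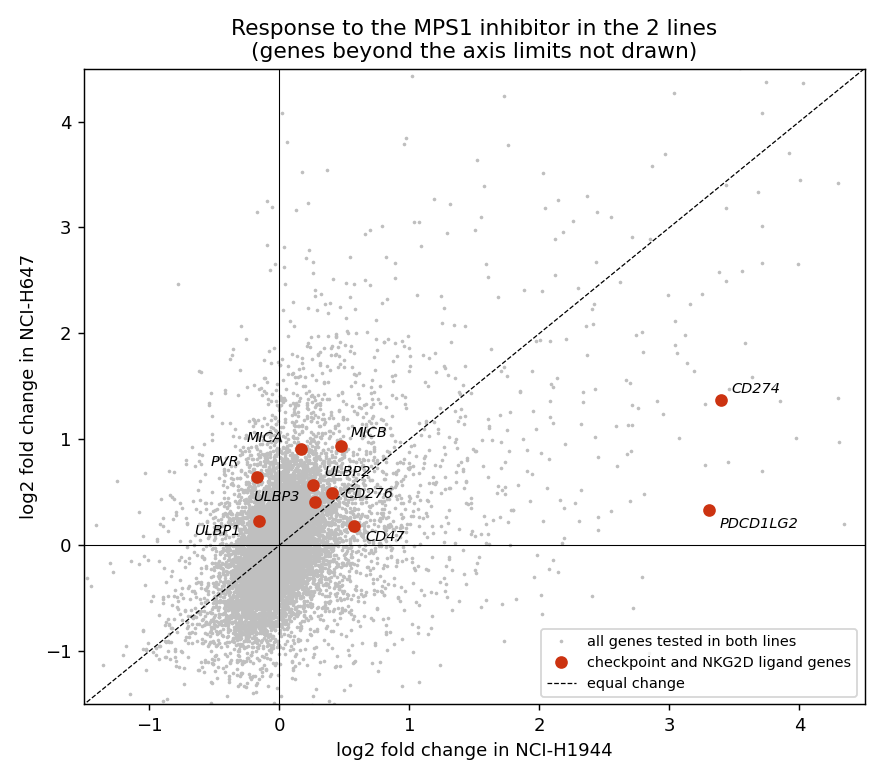
Log2 fold change in NCI-H1944 (horizontal axis) against NCI-H647 (vertical axis) for the genes tested in both lines (grey) and the 10 ligand genes (red, named). The dashed line marks an equal change. CD274 and PDCD1LG2 lie to the right of it, below the line, at 3.39 and 3.30 on the horizontal axis, and PVR and MICA lie above it.

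Of 17 genes of the interferon, JAK-STAT and NF-kB signalling that is known to control PD-L1, 15 rose and none fell in each line. The median log2 fold changes were 0.25 in NCI-H1944 and 0.53 in NCI-H647. Over all genes tested, 13.6% rose and 12.4% fell in NCI-H1944, and 27.3% and 27.0% in NCI-H647. These are the shares to set beside each list below. A gene low after DMSO could pass the filter only with its treated libraries, so list counts and medians were partly set by the filter. IRF1, a transcription factor that acts on the CD274 promoter, rose by 1.48 ± 0.06 in NCI-H1944 (adjusted p = 6.94e-12) and by 1.43 ± 0.07 in NCI-H647 (2.96e-10). The difference of response was not called for IRF1, at -0.06 (adjusted p = 0.638). STAT2 rose by 1.85 ± 0.04 and 1.45 ± 0.05, and its response was smaller in NCI-H647 by 0.42 (adjusted p = 9.99e-06).

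JAK2, a kinase of the interferon-gamma receptor, rose by 0.40 ± 0.08 in NCI-H1944 (adjusted p = 0.00172) and by 0.22 ± 0.07 in NCI-H647 (0.0177). The NCI-H647 call was lost with DESeq2 (0.236), in the joint fit (0.0508), with no filter (0.0746) and without DMSO replicate 1 (0.0891) or inhibitor replicate 2 (0.132).

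Genes near CD274 in pattern were sought by log2 of CPM plus 1 over the 8 libraries, centred on the DMSO mean of each line. The nearest were DDX60L, SP110 and UBE2L6, at Euclidean distances of 0.215, 0.277 and 0.322 among 10973 candidates. Adding 1 shrinks the change of a gene as low as CD274 after DMSO in NCI-H1944. These distances are therefore smaller than the log2 fold changes would give. DDX60L rose by 2.72 in NCI-H1944 and 1.32 in NCI-H647. SP110 rose by 2.76 and 1.30, and UBE2L6 by 2.68 and 1.13. All 3 had the larger log2 fold change in NCI-H1944, as the choice by likeness to CD274 favours. The genes nearest to MICA were BRPF3, CCNA1 and MEF2D, at distances of 0.114, 0.117 and 0.132. BRPF3 changed by 0.14 and 0.81 and MEF2D by 0.11 and 0.77, all called as rises. CCNA1 had 0.19, which was not called, and 1.18.

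Of 15 genes whose products mature, recycle or shed these ligands, 6 rose and 4 fell in NCI-H1944, and 4 rose and 6 fell in NCI-H647, with medians of 0.09 and -0.11. CMTM6, which protects PD-L1 from degradation, had a log2 fold change of 0.15 ± 0.05 in NCI-H1944 (adjusted p = 0.0405) and -0.18 ± 0.05 in NCI-H647 (0.00529), and the difference of -0.35 passed the test (0.000372). The NCI-H1944 rise was lost with DESeq2 (0.115), with library totals (0.0618), with no filter (0.186) and without DMSO replicate 1 (0.353) or inhibitor replicate 1 (0.284). Its relative CMTM4 fell by 0.60 on the log2 scale in NCI-H1944 and by 0.76 in NCI-H647. HIP1R, which directs PD-L1 to lysosomes, rose by 0.65 ± 0.07 in NCI-H1944 and had 0.15, not called, in NCI-H647. The sheddases MMP14 and ADAM17, which can cleave MIC proteins, rose in both lines. The changes were 0.23 ± 0.05 and 0.72 ± 0.04 for MMP14 and 0.11 ± 0.04 and 0.34 ± 0.04 for ADAM17, in NCI-H1944 and NCI-H647. USP22, a deubiquitinase, fell by 0.21 in each line.

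Among other inhibitory ligands, 7 of 9 tested genes rose in NCI-H1944 and 4 of 6 in NCI-H647, with none falling in either (medians 0.86 and 0.46). LGALS9, the gene of galectin-9, a ligand of TIM-3, went from 20 and 31 counts to 569 and 539 in NCI-H1944 (log2 4.30 ± 0.18). In NCI-H647 it went from 10 and 8 to 86 and 62 (3.42 ± 0.32), and passed the filter there only through its treated libraries. HLA-E, which presents leader peptides to NKG2A, rose by 1.45 ± 0.03 and 0.82 ± 0.04. CD24, a ligand of Siglec-10, rose by 0.86 ± 0.04 in NCI-H1944 and had -0.10, not called, in NCI-H647. CD55, which limits complement, rose by 0.31 ± 0.02 in NCI-H1944 and by 1.35 ± 0.04 in NCI-H647. HLA-G, named after its values were seen, was listed at 0 in replicate 1 of each NCI-H1944 group and at 150 and 298 counts in replicate 2.

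Of the remaining B7 family genes, 2 of 3 tested rose in each line (medians 0.21 and 0.81). VSIR, the gene of VISTA, rose by 0.47 ± 0.05 in NCI-H1944 and by 0.81 ± 0.16 in NCI-H647. NCR3LG1, which encodes the NKp30 ligand, rose by 0.21 ± 0.07 in NCI-H1944 and had 0.12, not called, in NCI-H647. ICOSLG, the gene of the ICOS ligand, went from 8 and 5 counts to 53 and 37 in NCI-H647 (3.17 ± 0.38), and had 0.13, not called, in NCI-H1944. Only its treated libraries took ICOSLG past the filter in NCI-H647. Of the nectins and the nectin-like gene CADM1, relatives of PVR, 2 of 5 tested rose in NCI-H1944. In NCI-H647 1 of 3 tested rose and 2 fell (medians 0.34 and -0.13). NECTIN2, which shares receptors with PVR, rose by 0.43 ± 0.04 and 0.50 ± 0.04, and so did not have the opposite directions of PVR. NECTIN3 rose by 0.34 ± 0.06 in NCI-H1944 and fell by 0.13 in NCI-H647, where NECTIN1 fell by 0.30 (-0.04, not called, in NCI-H1944).

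Of the NKG2D ligand genes outside the 10, 1 of 3 tested rose in NCI-H1944 and 0 of 2 in NCI-H647 (medians 0.18 and 0.14). The rise was RAET1L, which went from 45 and 43 counts to 216 and 296 (log2 2.40 ± 0.21, adjusted p = 2.68e-07). All 4 NCI-H647 libraries had 0 counts of RAET1L. Its sequence is close to that of ULBP2, and how reads fitting both were counted is not given in the sources used here. Adhesion ligands rose for 3 of 4 tested genes in NCI-H1944 and 3 of 3 in NCI-H647 (medians 0.51 and 1.19). ICAM1, the ligand of LFA-1, rose by 0.49 ± 0.07 and 1.19 ± 0.05, CD58, the ligand of CD2, by 0.37 ± 0.08 and 0.35 ± 0.06, and VCAM1 by 1.43 ± 0.48 and 2.07 ± 0.50. VCAM1 passed the filter in each line only because of its treated libraries, so its place in these counts and medians was partly set by the filter.

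The costimulatory TNF family genes rose for 1 of 7 tested in NCI-H1944 and 3 of 7 in NCI-H647, with none falling (medians 0.30 and 0.56). TNFSF15 rose by 0.54 ± 0.15 and 2.34 ± 0.07. In NCI-H647 TNFSF4, the gene of the OX40 ligand, rose by 1.13 ± 0.26 (-0.14, not called, in NCI-H1944). TNFSF18, the gene of the GITR ligand, went there from 1 and 2 counts to 14 and 13, and passed the filter only through its treated libraries. Of 12 DNA damage and stress genes, which include known activators of NKG2D ligand expression, 2 rose and 6 fell in NCI-H1944, and 6 rose and 5 fell in NCI-H647 (medians -0.07 and 0.05). DDIT3, a transcription factor of the stress response, rose by 0.20 ± 0.05 and 1.59 ± 0.12. HSPA1A, a heat-shock chaperone, rose by 0.92 ± 0.05 in NCI-H647 and had 0.05, not called, in NCI-H1944. The damage kinase gene ATM fell by 0.15 in NCI-H1944 and by 0.36 in NCI-H647. ATF4, a stress transcription factor, fell by 0.17 in NCI-H1944 and rose by 0.16 ± 0.04 in NCI-H647.

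Among the genes around the ligand genes, the calls were mixed. Of 74 other protein-coding genes within 250 kb of a ligand gene, 48 were tested in NCI-H1944, where 6 rose and 7 fell. In NCI-H647 45 were tested, of which 15 rose and 11 fell. Over all genes tested, 13.6% rose and 12.4% fell in NCI-H1944, and 27.3% and 27.0% in NCI-H647, so these counts were near the shares of all genes. PLGRKT, 12.6 kb before CD274, had -0.12 in NCI-H1944, not called, and fell by 0.30 in NCI-H647. RIC1, 57.7 kb after PDCD1LG2, had 0.09, not called, and rose by 0.19. HLA-B, a class I heavy chain gene 32.7 kb before MICA, rose by 1.98 ± 0.04 and 1.93 ± 0.05. DDX39B, 19.1 kb after MICB, had -0.01, not called, and fell by 0.23. ATP6V1G2-DDX39B, listed with the same start, had 0.08, not called, and rose by 0.74 ± 0.16.

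In the ULBP cluster, RAET1L lies between ULBP1 (44.6 kb away) and ULBP3 (35.5 kb away), and RAET1G, 18.9 kb before ULBP2, was not called in either line. ULBP2 and ULBP1 lie 14.7 kb apart, and ULBP2 was called in both lines and ULBP1 in neither. They were not tested against each other, and the ULBP2 call in NCI-H1944 was lost in several alternatives. In NCI-H647 the ULBP1 interval (-0.62 to 1.09) contained the ULBP2 value of 0.57. Of the genes nearest to CD276, NPTN rose by 0.18 in NCI-H647 and was not called in NCI-H1944, and INSYN1 was not called in NCI-H1944 and not tested in NCI-H647. Of those nearest to CD47, BBX rose by 0.19 in NCI-H1944 and IFT57 was called in neither line. Of those nearest to PVR, BCL3 fell by 0.37 in NCI-H647, and ZNF180 was called in neither line. CEACAM19, which overlaps PVR, rose by 1.34 ± 0.35 in NCI-H647.

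**Figure D4:**
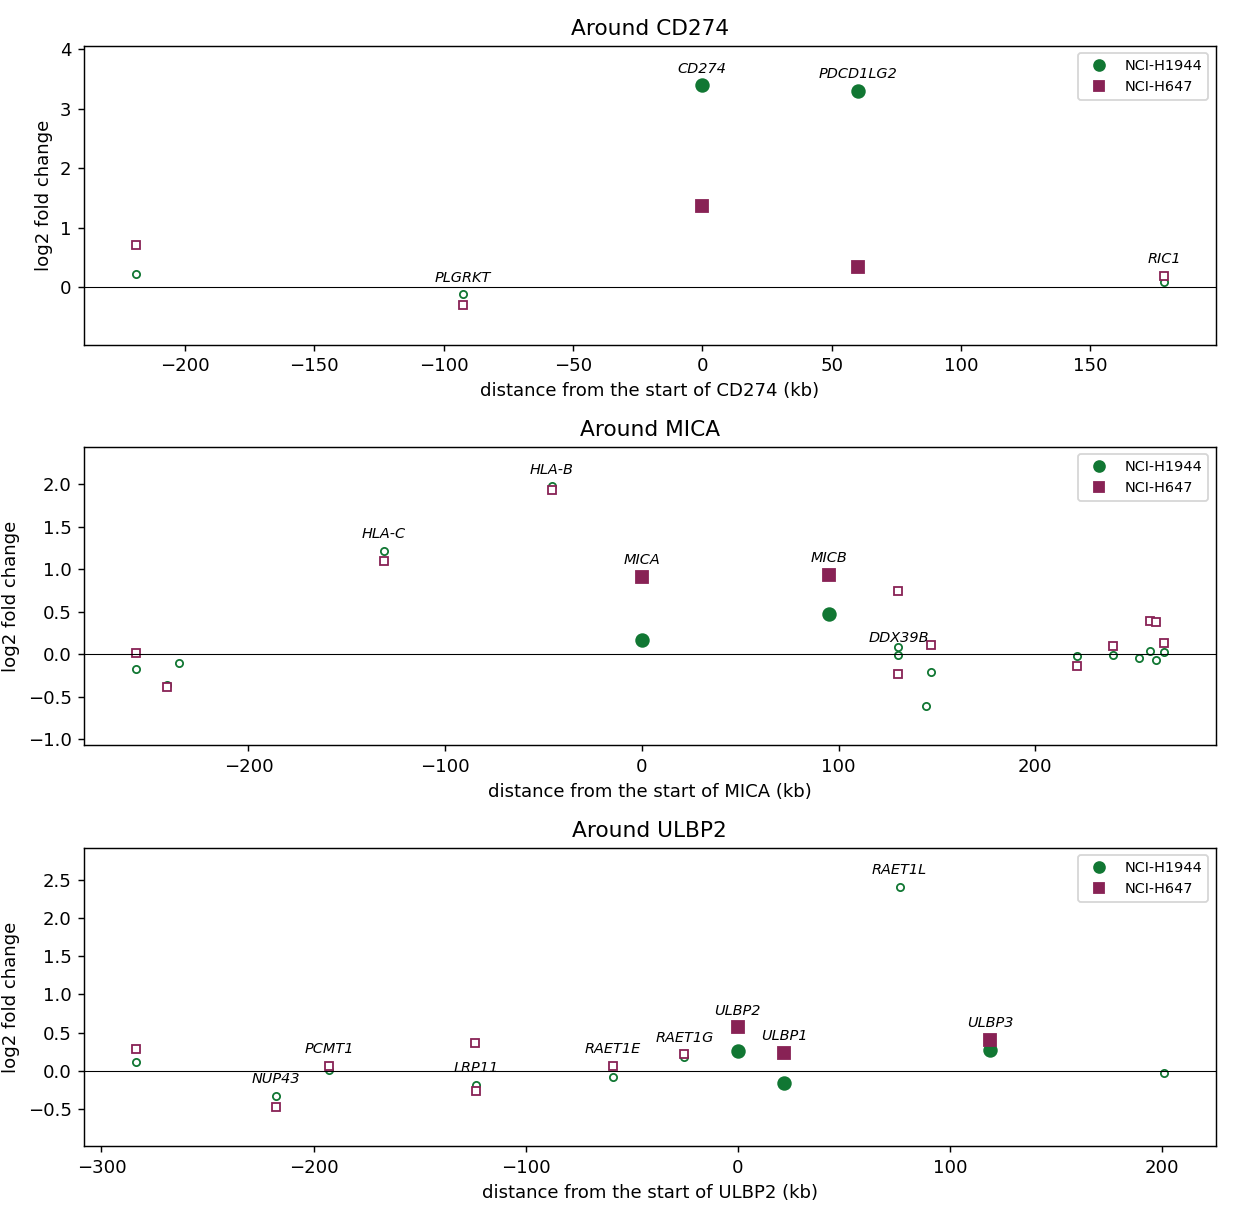
Log2 fold change, inhibitor against DMSO, of tested genes by distance in kb from the start of CD274 (top), MICA (middle) and ULBP2 (bottom), in NCI-H1944 (circles) and NCI-H647 (squares). Large filled symbols are the ligand genes and small open symbols are their neighbours. CD274 and PDCD1LG2 stand above PLGRKT and RIC1, but INSL4, not named in the panel, stands at 0.71 in NCI-H647, above PDCD1LG2 at 0.33. HLA-B stands above MICA and MICB, and RAET1L, at 2.40 in NCI-H1944, stands above the ULBP genes.

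NCI-H1944 was sequenced more deeply, with 38904473 to 43661342 counts in a library against 13358514 to 19550859 for NCI-H647, and no library was a copy of its replicate. Of 8 epithelial markers, 2 of 6 tested rose in NCI-H1944, KRT8 (0.29) and KRT18 (0.19), and the summed level went from 4128 and 4136 CPM to 4793 and 4952 CPM. In NCI-H647 3 of 6 fell, KRT7 (-0.70), KRT8 (-0.41) and KRT18 (-0.30), 1 rose, KRT19 (0.35), and the sum went from 898 and 877 CPM to 641 and 637 CPM. KRT19 and NKX2-1 were at 0 in NCI-H1944, and CDH1, with 3 to 9 counts, and NAPSA, with 0 to 3, were near 0 in NCI-H647. Leukocyte markers, a list of 9 genes, had 2 of 4 tested genes rising in NCI-H1944 and 2 of 3 in NCI-H647. LYZ in NCI-H1944 and CD14 in NCI-H647, each a rise, passed the filter only because of their treated libraries. The summed level of the leukocyte markers went from 72.5 to 76.3 CPM up to 165 to 170 CPM in NCI-H1944. In NCI-H647 it went from 150.0 to 150.3 CPM up to 226 to 228 CPM, in both lines mostly through CD68. The pan-leukocyte gene PTPRC was at 0 in NCI-H1944 and had 8, 4, 2 and 1 counts in NCI-H647, and MS4A1 and NKG7 were at 0 in all 8 libraries. Fibroblast markers, 6 genes, rose for 3 of 3 tested in NCI-H1944, from 29.7 to 33.4 CPM up to 45.9 to 46.4 CPM, with COL1A2 at 0. In NCI-H647 they rose for 0 of 4 and fell for 2, from 33.7 to 36.9 CPM down to 26.9 to 27.7 CPM. Of 4 endothelial markers, 1 of 1 tested rose in NCI-H1944 and 1 of 3 rose and 1 fell in NCI-H647. The part of the changed keratin, CD68, fibroblast and endothelial markers in the ligand results was not tested.

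The receptors of these ligands are mainly genes of immune cells. Of 8 receptor genes, a list that includes the NKG2D adaptor gene HCST, 4 were tested in NCI-H1944 and 2 in NCI-H647. Of these, 1 rose in each line, and KLRK1, the rise in NCI-H1944, passed the filter only through its treated libraries. PDCD1, TIGIT, CD96 and SIRPG were at 0 in NCI-H1944. In NCI-H647 CD96, a receptor of PVR, had 150 and 162 counts in the DMSO libraries and 137 and 110 in the treated ones (0.06, not called). SIRPA, the receptor of CD47, rose in NCI-H647 from 28 and 25 counts to 51 and 50 (1.33 ± 0.25) and had 0.08, not called, in NCI-H1944. KLRK1, which encodes NKG2D, was at 0 in both DMSO libraries of NCI-H1944 and at 46 and 76 counts after the inhibitor. Against a floor of 3 counts over the DMSO group this would be at least 37.0-fold higher, but only if the 0 is a sampled count. The readthrough gene KLRC4-KLRK1, looked up after these values were seen, had 56 and 83 counts in the DMSO libraries against 42 and 23 in the treated ones, and the division of reads between these overlapping genes is uncertain, so the 0 of KLRK1 may not be a sampled count.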

How the data were processed

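RNA sequencing of 8 libraries was analysed. The authors deposited raw read counts, as whole numbers for each gene, with a separate table for each line. Per the submitters' processing notes, the build was GRCh38 and the tools were HISAT2, STAR, StringTie, featureCounts, cutadapt, Trimmomatic and Trim Galore. Tool versions, the annotation and whether counting used strand were not given in the sources used here, so antisense and overlapping genes are uncertain. Per the labels' protocols, NCI-H1944 libraries were stranded and poly(A)-selected, and NCI-H647 libraries were stranded and depleted of ribosomal RNA.

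Counts were fitted per line in R 4.3.3 with edgeR 4.0.16 (limma 3.58.1). Steps were filterByExpr (minimum count 10, minimum total 15), TMM scaling, the quasi-likelihood F test and Benjamini-Hochberg adjustment over all genes tested, with a threshold of 0.05. Intervals are 95%. The response of the lines was compared by the interaction term on 12887 genes matched by symbol. Alternatives were DESeq2 1.42.0, its size factors in edgeR, library totals, no filter, a minimum change of 1.5-fold, a joint fit, a replicate block and leaving out each library.

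Groups came from sample titles. Whether replicates were separate cultures is not in the labels, and the p-values then reflect only the variation among these libraries, which could be technical.

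The members and lists were chosen with earlier results of these data known. Named were the 10 ligand genes, JAK2, IRF1, CMTM6, up to 3 called genes of smallest adjusted p per list and line, the nearest tested neighbour on each side, and the 3 genes nearest in pattern to CD274 and MICA, from genes that averaged 1 log2 CPM or more. Marker genes, receptors listed at 0 and genes overlapping a ligand gene are given for description. Some genes that the naming rule takes are not reported here.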

Additional observations from a re-analysis of the deposited data

Results flagged for a closer look

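The interaction test found a different response in the 2 lines for 6 of the 10 ligand genes, and for 25 of all 39 named genes tested in both. Most of the other named genes were taken for a small adjusted p in 1 of the lines, so this second count was partly set by that choice and is not compared with all genes. Values are the log2 response in NCI-H647 minus that in NCI-H1944, at an adjusted p under 0.05 from edgeR. Line cannot be told apart here from library kit, count table and depth. Groups of 2 libraries are too small to look for single outlying libraries.

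The ligand genes were CD274 (-2.04), PDCD1LG2 (-2.98) and CD47 (-0.42), with smaller responses in NCI-H647, and PVR (0.79), MICA (0.72) and MICB (0.44), with larger ones. Of the genes of other surface ligands and receptors, HLA-E (-0.65), CD24 (-0.97) and NECTIN3 (-0.49) were lower in the difference. NECTIN3 rose in NCI-H1944 and fell in NCI-H647. ICAM1 (0.68), TNFSF15 (1.78), TNFSF4 (1.24), ICOSLG (3.03), CD55 (1.01) and SIRPA (1.23) responded more. ICOSLG passed the filter in NCI-H647 only through its treated libraries. Of the genes that mature or shed ligands, CMTM6 (-0.35), CMTM4 (-0.19) and HIP1R (-0.52) were lower in the difference, and MMP14 (0.47) and ADAM17 (0.20) were higher. Of the signalling genes, STAT2 (-0.42) and ATM (-0.23) were lower, and ATF4 (0.30), DDIT3 (1.37) and HSPA1A (0.85) were higher.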

How the results depend on the processing

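With 2 libraries per group, small changes rest on few degrees of freedom, and low counts limit PDCD1LG2 in NCI-H1944 and ULBP1 in NCI-H647. Of 490 values for single genes under the alternatives, 436 stayed on their side of the threshold in the same direction, 50 lost the call, 4 gained it and 0 reversed. When a change of more than 1.5-fold was required, the ligand genes called fell from 7 to 2 in NCI-H1944 (2 higher and 0 lower) and from 9 to 3 in NCI-H647 (3 higher). A required difference of 1.5-fold left 3 of the 6 differing responses. DESeq2 called 5, 7 and 4. Leaving out 1 library at a time gave 6 to 7 called in NCI-H1944, 6 to 8 in NCI-H647 and 5 to 7 differing responses.

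Over all genes tested, same-numbered replicates did not deviate together (correlations of 0.044 in NCI-H1944 and 0.00257 in NCI-H647). Such a correlation cannot tell whether they shared a batch that acted on some genes. With a replicate block, 8 ligand genes were called in NCI-H1944, 9 in NCI-H647 and 6 in the difference, and 2490 genes rose and 2327 fell in NCI-H1944 and 4236 and 4198 in NCI-H647.

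Over all genes, 2271 rose and 2075 fell in NCI-H1944, against 1620 and 1400 with DESeq2, 1319 and 1006 with no filter and 385 and 42 at 1.5-fold. In NCI-H647 they were 4114 and 4070, against 2666 and 2780 with DESeq2 and 792 and 464 at 1.5-fold. Differing responses were 1844 larger and 2014 smaller in NCI-H647 with DESeq2 and 233 and 284 at 1.5-fold, against 2240 and 2926. Leaving out 1 library at a time, 1688 to 2050 genes rose and 1609 to 1682 fell in NCI-H1944, 3314 to 3677 rose and 3576 to 3718 fell in NCI-H647, and 1832 to 2159 responses were larger and 2316 to 2805 smaller.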
